A study of Mus musculus with 16 samples.

Results

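Midkine, encoded by Mdk, was described in the kidney cells of Gulo-/- mice and wild type mice. It is 1 of the 27998 genes listed in the single-cell matrices, and 4 of the 86510 regions in the authors' methylation table carry its name. The gene was chosen from earlier results of these data for its low level in Gulo-/- proximal tubule cells, so its levels by genotype are given below as a description, with no test. Gulo codes for the enzyme that completes vitamin C (ascorbate) synthesis. Mice without it depend on dietary vitamin C, and the labels used here give no diet, age or sex. The 2 Gulo-/- and 2 wild type single-cell libraries came from chopped and mixed C57BL/6 kidneys, other portions of which went to bisulfite and m6A sequencing. The labels number the libraries 1 and 2 within a genotype without saying whether each was a separate animal. By Xist and Ddx3y, given below, the 2 libraries of each genotype were of opposite sex, and so not from the same animal. The p-values therefore measure the spread between these particular libraries. That spread includes any difference between the sexes and may also be partly technical.

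Midkine is a secreted, heparin-binding growth factor. Together with pleiotrophin (Ptn) it forms a family of its own, and it signals through a set of shared receptors and co-receptors, including the phosphatase Ptprz1, the kinase Alk, LDL receptor-related proteins, integrins and heparan sulfate proteoglycans. It is abundant in the embryo and low in most adult organs. In the adult mouse kidney the proximal tubule is a known source of midkine, and studies of mice lacking the gene have linked it to leukocyte recruitment after tubular injury and to the renin-angiotensin system. The proximal tubule reabsorbs most of the filtered glucose, amino acids and phosphate, and is divided along its length into the S1, S2 and S3 segments.

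The Mdk gene (ENSMUSG00000027239) spans 2493 bases of mouse chromosome 2, at chr2:91929805-91932297 on the minus strand of mm10. The 31 bases at its 3′ end overlap Chrm4, a muscarinic receptor gene, which had 0 UMIs in proximal tubule cells of every library. An annotated long noncoding RNA, Gm39876, overlaps its 5′ end and was not analysed here. A UMI, or unique molecular identifier, marks one captured RNA molecule.

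The files held 2919 and 16822 cell barcodes for Gulo-/- replicates 1 and 2, and 2090 and 11829 for wild type replicates 1 and 2. After filters on UMIs, genes and mitochondrial share and removal of probable doublets, 1849 and 12403 Gulo-/- cells and 1575 and 7006 wild type cells remained, with median depths of 3014 to 4876.5 UMIs per cell. The libraries stood apart in several ways. Wild type replicates 1 and 2 shared 986 barcodes, which were taken out of replicate 2, while the other pairs of libraries shared 9 to 282. Proximal tubule cells made up 49.7% and 23.1% of kept cells in the Gulo-/- libraries and 82.5% and 83.9% in the wild type libraries. By Xist and Ddx3y, Gulo-/- replicate 1 and wild type replicate 2 were male and Gulo-/- replicate 2 and wild type replicate 1 were female, so each genotype had 1 library of each sex. Gulo itself had 0 and 2 UMIs in the Gulo-/- libraries and 0 and 2 in the wild type libraries, too few to check the genotype labels.

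Mdk was a gene of the wild type proximal tubule in these data. Kept Gulo-/- cells had 18 Mdk UMIs in replicate 1 and 26 in replicate 2, against 446 and 1541 in the wild type libraries. These counts correspond to 2.43 and 0.376 CPM (UMIs of the gene in every 1000000 UMIs of the same cells) in the Gulo-/- libraries and 52.6 and 35.6 CPM in the wild type libraries. In wild type, proximal tubule cells held 98.9% and 98.3% of all Mdk UMIs while contributing 86.3% and 86.2% of all UMIs. In the Gulo-/- libraries, they held 22.2% and 50% of the few Mdk UMIs and contributed 54.3% and 16.7% of all UMIs. The low total in Gulo-/- kidneys was therefore measured with a smaller share of proximal tubule cells, and the values below are taken within gated cells.

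Cells were gated by the UMIs of marker genes, none of which is Mdk. The proximal tubule gate used 10 genes, among them the phosphate transporter Slc34a1, the endocytic receptors Lrp2 and Cubn, and the transcription factor Hnf4a. All 10 were detected in the gated cells of every library, and together they summed to 11680 and 11587 CPM in Gulo-/- cells and 22793 and 11594 CPM in wild type cells. The gate held 919 and 2859 Gulo-/- cells and 1300 and 5881 wild type cells. Transcripts of other cells were also present in it. The thick ascending limb list, with all 6 genes detected, summed to 118.4 and 856 CPM in Gulo-/- cells and 36.9 and 174.6 CPM in wild type cells, which overlap. The distal convoluted and connecting tubule list, with 6 or 7 of 7 genes detected, summed to 772 and 1001 CPM in Gulo-/- cells and 244.3 and 268.3 CPM in wild type cells, and the endothelial list, with all 9 genes detected, to 139.2 and 70.3 CPM in Gulo-/- cells and 22.6 and 17.3 CPM in wild type cells. The principal cell list, with 6 or 7 of 7 genes detected, summed to 121.8 and 368 CPM in Gulo-/- cells and 26.5 and 65.9 CPM in wild type cells, and the stromal list, with 5 to 9 of 9 genes detected, to 24.6 and 23.1 CPM in Gulo-/- cells and 3.83 and 1.10 CPM in wild type cells. Apart from the thick ascending limb list, these lists were higher in both Gulo-/- libraries, beside the lower Mdk, and their part in the Mdk difference was not tested over the whole gate. Cells with no UMI of any other class's list were also taken alone, except that erythroid UMIs were allowed. The erythroid list summed to 67.2 and 38.2 CPM in the Gulo-/- gate and 38.0 and 463 CPM in the wild type gate. In the cells so taken, Mdk had 0 UMIs in 61 and 4 Gulo-/- cells, which allows up to 24.1 and 286 CPM. It had 48.6 and 34.1 CPM in 410 and 465 wild type cells. The limit for Gulo-/- replicate 2 lies above both wild type levels, so only replicate 1 could be compared there.

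Within the proximal tubule gate, Mdk was measured at 0.992 CPM in Gulo-/- replicate 1 and 1.13 CPM in Gulo-/- replicate 2, against 60.3 CPM in wild type replicate 1 and 40.6 CPM in wild type replicate 2. The Gulo-/- values rest on 4 and 13 UMIs and the wild type values on 441 and 1515 UMIs. The 95% counting intervals were 0.27 to 2.54 and 0.601 to 1.93 CPM in the Gulo-/- libraries, and 54.8 to 66.2 and 38.6 to 42.7 CPM in the wild type libraries. The 2 genotypes lay far apart and both Gulo-/- libraries lay within each other's interval, whereas the wild type libraries differed from each other by more than counting error. The means were 1.06 ± 0.0964 CPM in Gulo-/- and 50.5 ± 13.9 CPM in wild type (SD, n = 2 libraries each). The fitted log2 difference was −5.71 ± 0.40 (SE, edgeR), Gulo-/- minus wild type. Here and below, this SE is the absolute log2 difference divided by the square root of edgeR's F statistic.

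The share of cells with at least 1 Mdk UMI gave the same picture. In the proximal tubule gate, 4 cells (0.435%) of Gulo-/- replicate 1 and 10 cells (0.350%) of replicate 2 had an Mdk UMI, against 255 cells (19.6%) of wild type replicate 1 and 997 cells (17.0%) of replicate 2. Median depth in the gate was 3473 and 3161 UMIs per cell in Gulo-/- and 3871 and 5063 in wild type, so the shares were also computed at a fixed depth. Thinned to 1000 UMIs per cell, they were 0.132% and 0.110% in Gulo-/- and 5.53% and 4.03% in wild type. Depth therefore left the order of the 4 libraries by genotype as it was.

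The difference was measured within each sex. Between the male libraries, the wild type level was 40.9 times that of Gulo-/- (95% counting interval 15.9 to 150.4). Between the female libraries, it was 53.4 times that of Gulo-/- (30.9 to 101.2). The other pairings gave 60.8 (23.6 to 224.0) for wild type replicate 1 over Gulo-/- replicate 1 and 36.0 (21.0 to 67.7) for wild type replicate 2 over Gulo-/- replicate 2. All 4 intervals overlap, and their lowest end is 15.9.

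Few Gulo-/- proximal tubule cells had an Mdk UMI, and only 1 of them had more than 1. In Gulo-/- replicate 1, 915 proximal tubule cells had no Mdk UMI and 4 had 1. In Gulo-/- replicate 2, 2849 cells had none, 9 had 1, and a single cell had 4, which is 30.8% of all its proximal tubule Mdk UMIs. Among wild type cells, 154 cells of replicate 1 and 710 cells of replicate 2 had 1 UMI, while 42 and 126 cells had at least 3. Those cells with at least 3 UMIs held 38.3% and 31.9% of the wild type Mdk UMIs, and the highest counts in one cell were 8 and 11. The plot of Mdk UMIs per cell shows both wild type libraries extending to 8 UMIs, the highest count drawn, with unlike shares at the higher counts. The Gulo-/- libraries drop out after 1 UMI apart from that single cell.

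**Figure D1:**
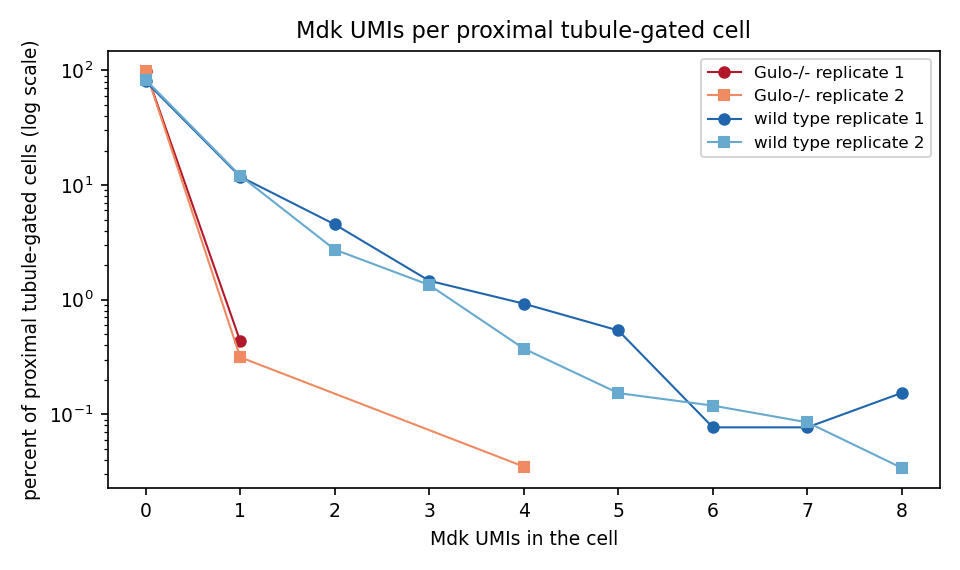
Percent of proximal tubule-gated cells (vertical, log scale) by the number of Mdk UMIs in the cell (horizontal), one line per library; counts over 8 are not drawn. The Gulo-/- libraries have 4 and 10 positive cells, the wild type libraries 255 and 997.

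The difference was present in the S1 and S2 segments. S1 cells were gated on the glucose transporter Slc5a2, the monocarboxylate transporter Slc5a12 and the amino acid transporters Slc7a7 and Slc7a8. In S1 cells Mdk had 0 and 4 UMIs in the Gulo-/- libraries (0 and 1.18 CPM), against 117 and 377 in the wild type libraries (63.1 and 77.7 CPM). The 76 Gulo-/- replicate 1 cells allow a level of up to 8.35 CPM, and all 4 UMIs of replicate 2 came from 1 of its 765 cells. Slc5a2 itself was at 579 and 455 CPM in Gulo-/- S1 cells and 475 and 370 CPM in wild type S1 cells. The S1 list as a whole, on which the cells were gated, summed to 1437 and 1468 CPM in Gulo-/- S1 cells and 1244 and 1019 CPM in wild type S1 cells. The fit over S1 cells alone gave a log2 difference of −6.11 ± 0.52 (SE, edgeR). The stromal list in these cells summed to 175.4 and 63.9 CPM in Gulo-/- and 0 and 1.03 CPM in wild type, and its part in the difference was not tested.

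S2 cells were gated on organic ion and dicarboxylate transporters such as Slc22a6, Slc22a8 and Slc13a3. Mdk was at 1.29 and 0.819 CPM in Gulo-/- S2 cells, from 2 UMIs in each library, and at 72.3 and 32.6 CPM in wild type S2 cells. The log2 difference was −5.82 ± 0.63 (SE, edgeR). Positive cells were 0.794% and 0.380% in Gulo-/- and 28.1% and 16.3% in wild type.

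S3 was poorly sampled outside wild type replicate 2. No Mdk UMI was found in 11 and 38 Gulo-/- S3 cells or in 7 S3 cells of wild type replicate 1, which allows up to 38.0, 21.3 and 50.5 CPM. In wild type replicate 2, 265 S3 cells had 19 Mdk UMIs, or 10.8 CPM (6.53 to 16.9). A difference by genotype in S3 was not detectable at this depth. Cells of the gate that met no segment's rule had 0.982 and 1.26 CPM in Gulo-/- and 51.6 and 37.9 CPM in wild type.

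The segments were compared within each wild type library. In wild type replicate 2, where S3 was the lowest, S1 was at 2.39 times S2 (2.04 to 2.80, counting interval) and 7.17 times S3 (4.53 to 12), and S2 was at 3.0 times S3 (1.89 to 5.07). In wild type replicate 1, S1 was at 0.872 times S2 (0.681 to 1.11). The order of S1 and S2 therefore differed between the wild type libraries, and these intervals cover counting error only.

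Grading cells by their summed S1-marker UMIs, instead of a gate, gave the same order in both wild type libraries. Cells with 0 S1-marker UMIs had 41.0 and 21.7 CPM of Mdk in wild type replicates 1 and 2, those with 1 to 2 had 49.0 and 30.5 CPM, those with 3 to 5 had 64.3 and 58.9 CPM, and those with 6 or more had 86.7 and 84.0 CPM. In the uppermost bin, 38.9% and 36.7% of wild type cells had an Mdk UMI, although these cells were also deeper (median 8746 and 8091 UMIs). Thinned to 1000 UMIs per cell, the shares were 8.27% and 7.90% in that bin, against 4.40% and 2.59% in wild type cells with no S1-marker UMI. In the same bin Gulo-/- cells had 0 and 1.68 CPM, with 0% and 0.435% positive cells. Grading by S3-marker UMIs gave no common order in wild type. Wild type replicate 1 had 57.1 CPM with none, 67.3 CPM with 1 to 2 and 95 CPM with 3 to 5 (34 cells, 63.6 to 136.4), and only 6 cells with more, while wild type replicate 2 had 53.8, 53.6, 38.7 and, with 6 or more, 17.9 CPM. The S3 list was carried by different genes in these 2 libraries, which also differ in sex. In S3-gated cells, Slc7a13 and Slc22a30 were at 100.9 and 0 CPM in wild type replicate 1 and 867 and 746 CPM in replicate 2. Slc5a10 and Slc22a19 were at 605 and 353 CPM in replicate 1 and 43.9 and 2.28 CPM in replicate 2. The S3 grades of the 2 libraries are therefore not the same measure. The high S1-marker cells were where the genotypes lay farthest apart in absolute level.

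**Figure D2:**
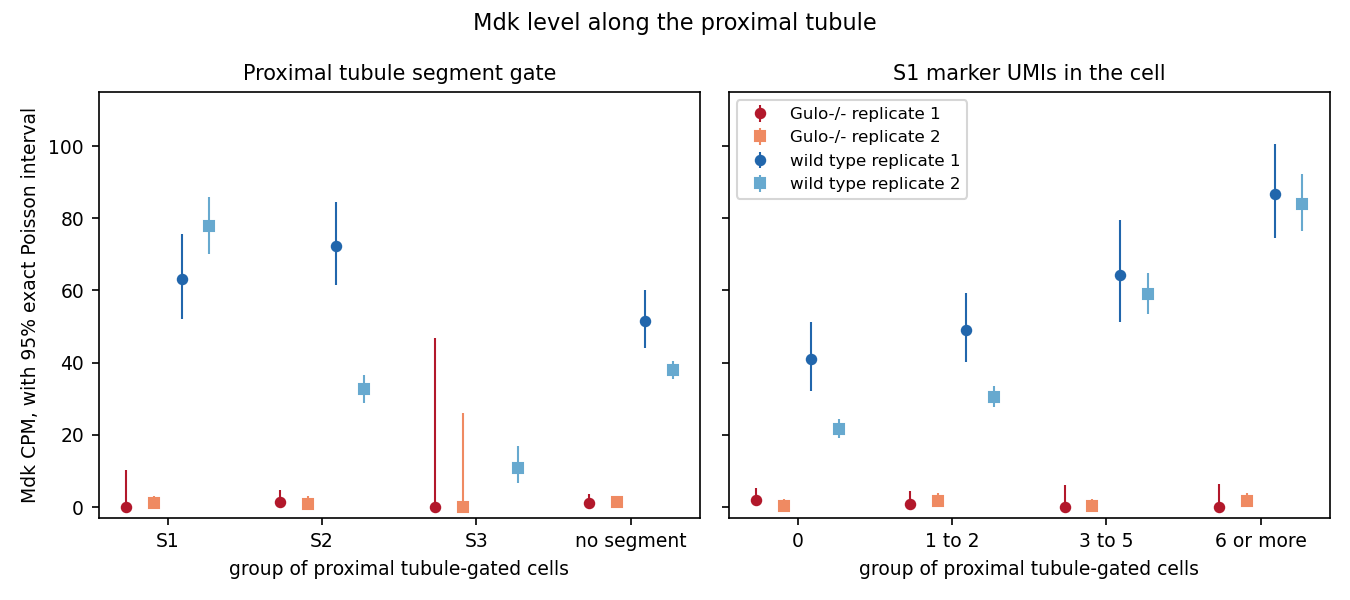
Mdk level (CPM) in proximal tubule-gated cells by segment gate (left) and by summed S1-marker UMIs per cell (right), one marker per library with 95% Poisson intervals; points from fewer than 10 cells are left out. Gulo-/- points stay at or below 1.83 CPM in every bin of S1-marker UMIs, while wild type points run from 21.7 to 86.7 CPM.

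The wild type level also moved with measures of cell quality, in one direction in both libraries for mitochondrial share. Cells with at most 10% mitochondrial UMIs had 0 and 0.675 CPM in Gulo-/- and 32.4 and 30.5 CPM in wild type. Cells with 25 to 50% had 2.32 and 1.12 CPM in Gulo-/- and 87.7 and 52.9 CPM in wild type. The median mitochondrial share of the gate was 18.2% and 18.8% in Gulo-/- and 17.7% and 23.6% in wild type, and the genotypes overlapped in this measure. By depth, the lowest wild type values were in cells above 10000 UMIs, at 0 and 1.23 CPM in Gulo-/- and 49.3 and 31.8 CPM in wild type. In each bin of mitochondrial share and of depth, both Gulo-/- libraries were below both wild type libraries.

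Outside the proximal tubule, Mdk was close to the limit of counting in epithelial cells. The thick ascending limb, distal convoluted and connecting tubule, principal and intercalated cells together had 1 and 3 Mdk UMIs in 388 and 7327 Gulo-/- cells and 1 and 8 UMIs in 85 and 452 wild type cells. Their levels were 0.580 and 0.0641 CPM in Gulo-/- and 2.64 and 2.54 CPM in wild type. Positive cells were 0.258% and 0.0409% in Gulo-/- and 1.18% and 1.55% in wild type, at median depths of 3852.5 and 5714 UMIs against 3256 and 6151 UMIs. Whether these UMIs came from free RNA in the droplets, from doublets or from the cells themselves was not tested. The shares below are a description, and their intervals cover counting error over the cells of 1 library only. For Gulo-/- replicate 1, the proximal tubule share of 0.435% (0.119 to 1.11, exact binomial interval) could not be told from its distal share of 0.258% (0.00653 to 1.43) at this depth, since the distal share rests on 1 cell. For Gulo-/- replicate 2, the proximal tubule share of 0.350% (0.168 to 0.642) lies above its distal share of 0.0409% (0.00844 to 0.120), at median depths of 3161 and 5714 UMIs. Wild type proximal tubule cells were far above the distal cells of the same library in both libraries.

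Stromal cells, which were very few, also held Mdk UMIs. The stromal gate used fibroblast and pericyte genes such as Col1a1, Dcn and Pdgfrb, and its list summed to 20717 and 18951 CPM in Gulo-/- and 7165 and 4956 CPM in wild type. In Gulo-/- replicate 1, 4 of 17 stromal cells (23.5%) held 7 Mdk UMIs, or 140.5 CPM (56.5 to 289.5). In Gulo-/- replicate 2, 1 of 34 cells held 1 UMI, or 5.83 CPM. The wild type libraries had 3 UMIs in 1 of 3 stromal cells and 0 UMIs in 2 cells, which is too few for a level. In Gulo-/- replicate 1 these 17 cells held 38.9% of all Mdk UMIs, more than the 22.2% held by its 919 proximal tubule cells.

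Endothelial cells, gated on genes such as Pecam1, Kdr and Emcn, had 5 and 1 Mdk UMIs in 316 and 769 Gulo-/- cells and 0 and 8 UMIs in 88 and 135 wild type cells. The levels were 6.49 and 0.277 CPM in Gulo-/- and 0 and 16.5 CPM in wild type, and the genotypes overlapped. The proximal tubule list in these cells summed to 605 and 602 CPM in Gulo-/- and 896 and 1531 CPM in wild type, so wild type replicate 2 had the most proximal tubule RNA and the most Mdk; the part of the one in the other was not tested. Among immune, blood and glomerular cells, Mdk had 1 UMI in 100 T and NK cells of Gulo-/- replicate 2. The same library had 1 UMI in 135 macrophages and monocytes and 2 UMIs in 1 of 19 podocytes. Wild type replicate 2 had 3 UMIs each in 45 T and NK cells and 91 erythroid cells, and 1 UMI in 107 macrophages and monocytes. B and plasma cells, neutrophils and urothelium had 0 Mdk UMIs in every library that held them. The plot of Mdk by cell class shows wild type proximal tubule as the one class in which both wild type libraries stand above every Gulo-/- class drawn.

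**Figure D3:**
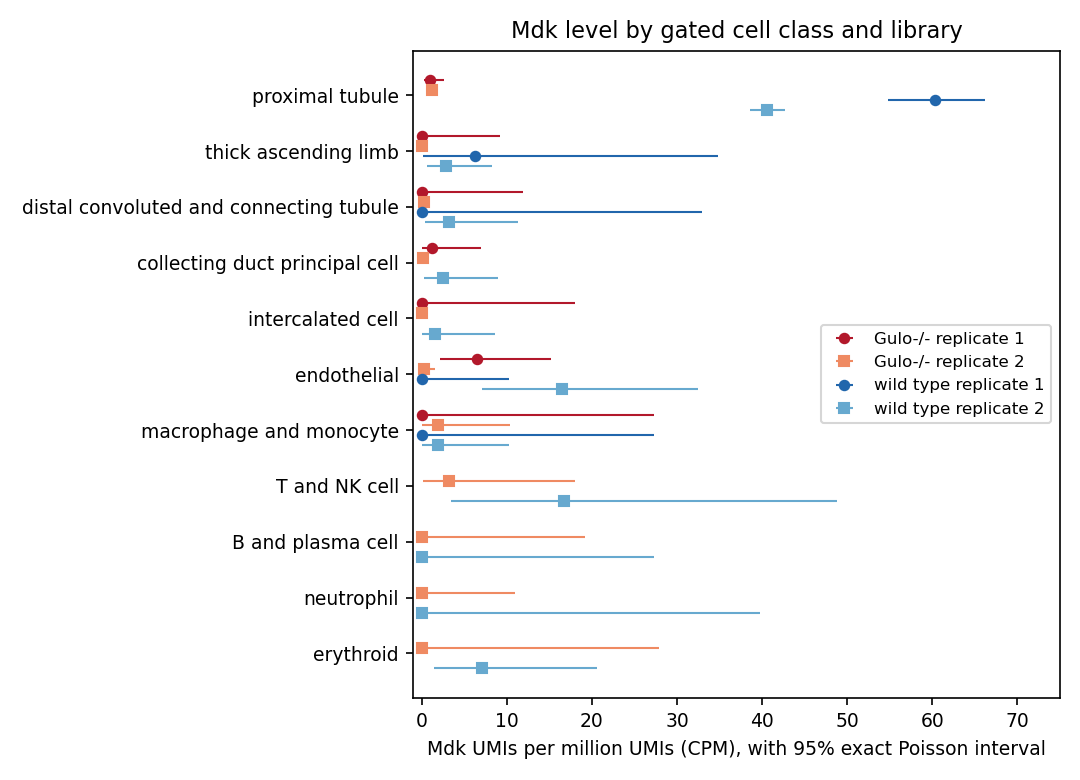
Mdk level (CPM, with 95% Poisson intervals) in each gated class with at least 20 cells in 2 or more libraries, one marker per library, stromal cells left out. Proximal tubule cells are at 0.992 and 1.13 CPM in Gulo-/- and 60.3 and 40.6 CPM in wild type, and the other classes lie at 16.7 CPM or below.

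The gated levels were also compared with clusters. Leiden clustering of all cells with Mdk left out gave 10 proximal tubule-like clusters by the same markers, and 98.9% of the 10959 gated cells lay in them. Over the clusters with at least 20 cells of a library, Mdk ranged up to 2.46 CPM in Gulo-/- replicate 1 and 1.58 CPM in Gulo-/- replicate 2, and up to 138.3 CPM in wild type replicate 1 and 87.0 CPM in wild type replicate 2. Wild type replicate 2 cells lay mostly in clusters of their own. A cluster that all 4 libraries shared had 0.904 CPM in 272 cells and 1.58 CPM in 1389 cells of Gulo-/- replicates 1 and 2, against 108.8 CPM in 280 cells and 62.2 CPM in 20 cells of wild type replicates 1 and 2. One cluster in which the S3 list summed to 950 CPM in 168 cells of Gulo-/- replicate 2 and 859 CPM in 21 cells of wild type replicate 1 had 0 Mdk UMIs in both. In wild type replicate 2, the pair of clusters with the highest S3-list sums (858 and 1794 CPM) had 14.2 and 15.3 CPM of Mdk, below its 4 other clusters.

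Among wild type proximal tubule cells, the gene whose level went most with Mdk from cell to cell was Spp2, followed by Gpx3 and Spp1. Likeness was Pearson's r of log-scaled UMIs with Mdk in each wild type library, over 5435 genes detected in at least 5% of cells, ranked by the lower of the 2 values. These r values are descriptions over 1300 and 5881 cells that share a library and differ in depth, and all were weak. The first 12 genes were Spp2, Gpx3, Spp1, Pdzk1ip1, Cyp2d26, Alpl, Lgmn, Slc3a2, Car14, Car12, Slc7a7 and Dpep1. Spp2, a secreted phosphoprotein, had r = 0.187 in wild type replicate 1 and 0.201 in replicate 2. Gpx3, the plasma glutathione peroxidase, which the proximal tubule secretes, had r = 0.158 and 0.236. The lower r of Dpep1, a brush border dipeptidase, was 0.0998, against a median of −0.0110 over all 5435 genes.

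Depth ran with these correlations. Wild type cells with an Mdk UMI had a median of 6093 and 6831 UMIs in replicates 1 and 2, against 3502 and 4746.5 UMIs in cells without one. After depth and segment-marker scores were regressed out, r was 0.104 and 0.113 for Spp2 and 0.083 and 0.146 for Gpx3. For Slc7a7, an S1 marker, it was 0.011 and −0.011. The UMIs of Slc7a7 are part of the S1 score regressed out, so its low value is partly built in. Scaled by total UMIs, Spp2 was at 1481 CPM in Mdk-positive cells and 961 CPM in Mdk-negative cells of wild type replicate 1, and at 493 and 294 CPM in replicate 2. Within wild type S1 cells alone (239 and 712 cells, 6370 genes) the first 8 genes were Tecr, Hsp90b1, Tex261, Gcnt1, Cst3, Timd2, Fam126b and Cldn2, with lower r between 0.145 and 0.123, and none of them was among the first 12 of the whole gate.

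The genes alike to Mdk among wild type cells were then compared between genotypes. Over proximal tubule cells, edgeR's quasi-likelihood test with Benjamini-Hochberg adjustment called 21 of 11153 genes (0.188%) at an adjusted p under 0.05, namely 0.0717% in the higher and 0.117% in the lower direction in Gulo-/-. It called 0 of the first 12 genes and 0 of the first 8 S1 genes. Of these, 2 and 1 had an unadjusted edgeR p under 0.05, against 16.4% of all genes tested. DESeq2 called 0 and 1, against 1.96% of all genes it tested. Calls with 1 library left out rest on a single library in a genotype and are not given for these genes. The median log2 differences of the 12 and the 8 genes were 0.19 and 0.05, against 0.03 over all genes. Gpx3 was at 23939 and 24421 CPM in Gulo-/- and 19117 and 18737 CPM in wild type. Spp2 was at 638 and 1286 CPM in Gulo-/- and 1096 and 334 CPM in wild type, with overlapping genotypes. Dpep1 had 36.2 and 25.1 CPM in Gulo-/- and 71.0 and 49.2 CPM in wild type (log2 difference −1.13 ± 0.32 SE, edgeR adjusted p = 0.185). Cldn2, the claudin that makes the proximal tubule's tight junctions permeable to cations, had 240.2 and 181.4 CPM in Gulo-/- and 77.8 and 83.8 CPM in wild type (1.24 ± 0.25, edgeR adjusted p = 0.105). Gpx3, Dpep1 and Cldn2 were chosen from the list after their values were seen.

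A different set of genes resembled Mdk when whole classes were compared. Over 26 sums of cells by class and library, covering 11 classes and both genotypes, the 10 most alike of 19100 genes were Apob, Slc22a7, Ifrd2, Fam25c, Gm15217, Smlr1, Hnf4aos, Slc18a1, Odc1 and Slc22a28, with r of log2(CPM + 1) from 0.83 to 0.75. The genotype difference of Mdk is part of this measure, so these genes' own differences are a description of the choice and carry no test. Apob, the structural protein of triglyceride-rich lipoproteins, was at 3.47 and 4.69 CPM in Gulo-/- and 24.6 and 19.1 CPM in wild type proximal tubule cells. Slc22a7, an organic anion transporter, had 0.744 and 0.434 CPM in Gulo-/- and 7.66 and 10.4 CPM in wild type. Odc1, the first enzyme of polyamine synthesis, had 160.0 and 124.3 CPM in Gulo-/- and 365 and 1422 CPM in wild type. All 10 had lower fitted values in Gulo-/-, and 8 had libraries that did not overlap between genotypes; 16.5% of all genes tested had libraries lower in Gulo-/- without overlap.

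Mdk's family member and receptors were examined in the same cells. Pleiotrophin (Ptn) had 0 and 5 UMIs in Gulo-/- proximal tubule cells and 1 and 17 in wild type ones, too few to test. Of 16 receptors and binding partners, 13 had a UMI in the proximal tubule and 10 passed the filter on low counts. Ptprz1, Alk and Gpc2 had 0 UMIs in the proximal tubule gate of all 4 libraries. edgeR called 0 of the 10, 8 of which had positive log2 differences, with a median of 0.67 against 0.03 over all genes. In 8 of the 10 the genotypes did not overlap, against 51.0% of all genes tested, so this count is read against a high background.

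Lrp2 (megalin), the multiligand endocytic receptor of the proximal tubule and the most abundant of these receptors in wild type cells, was at 344 and 347 CPM in Gulo-/- and 313 and 400 CPM in wild type (log2 difference −0.19 ± 0.24 SE, edgeR adjusted p = 0.735). Lrp2 is also a marker of the proximal tubule gate, so its level in these cells is partly set by the gating. Ncl, or nucleolin, a nucleolar protein that also binds midkine at the cell surface, had 125 and 133 CPM in Gulo-/- and 103.1 and 96.7 CPM in wild type (0.21 ± 0.22, edgeR adjusted p = 0.655). Sdc4, a heparan sulfate proteoglycan of the syndecan family, had 151 and 152 CPM in Gulo-/- and 79.9 and 76.2 CPM in wild type (0.80 ± 0.22, edgeR adjusted p = 0.164). The Sdc4 libraries lay close together within each genotype and apart between genotypes, without passing the test. Sdc2, another syndecan, had 16.4 and 10.8 CPM in Gulo-/- and 7.66 and 45 CPM in wild type, where replicate 2 alone was high. The integrin subunit Itgb1 had 33.7 and 43.5 CPM in Gulo-/- and 16.1 and 24.6 CPM in wild type (0.77 ± 0.27, edgeR adjusted p = 0.232). Its partner Itga6, chosen after its values were seen, had 32.5 and 42.5 CPM in Gulo-/- and 16.8 and 15.8 CPM in wild type (1.05 ± 0.25, edgeR adjusted p = 0.135). Notch2, likewise chosen, had 11.9 and 8.86 CPM in Gulo-/- and 2.87 and 3.38 CPM in wild type (1.56 ± 0.34, edgeR adjusted p = 0.113). For Sdc4, Itgb1, Itga6 and Notch2, both Gulo-/- libraries were above both wild type libraries, and none of the 4 passed the threshold. The same held for Ncl, Lrp6, Sdc1 and Nrp1, the remainder of the 8 receptors without overlap, all of them higher in Gulo-/-; 34.5% of all genes tested were higher in Gulo-/- without overlap.

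Regulators reported for the midkine gene, a list of 20 retinoid, hypoxia, NF-kB and glucocorticoid genes with Wt1, gave 12 tested genes. edgeR called 0 of them, 7 had positive differences and the median was 0.12. Nr3c1, the glucocorticoid receptor, had 24.8 and 32.6 CPM in Gulo-/- and 31.0 and 36.5 CPM in wild type (log2 difference −0.38, edgeR adjusted p = 0.455). Rxra, the shared partner of retinoid receptors, had 32 and 23.5 CPM in Gulo-/- and 17.8 and 27.0 CPM in wild type (0.16, edgeR adjusted p = 0.816). The retinoic acid receptor and hypoxia genes thus showed no called difference beside that of Mdk, though a missed threshold does not show equal levels. Hif1a, the hypoxia-inducible factor subunit and a gene picked after its values were seen, had 30.8 and 35 CPM in Gulo-/- and 14.8 and 15.5 CPM in wild type (0.97 ± 0.24, edgeR adjusted p = 0.138).

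Of 9 chemokine and angiotensin genes reported to follow midkine in kidney disease models, 7 were tested and edgeR called 0. Agt, or angiotensinogen, the substrate of renin, was named after its values were seen. It had 21.8 and 30.5 CPM in Gulo-/- and 7.66 and 4.72 CPM in wild type (log2 difference 1.95 ± 0.36 SE, edgeR adjusted p = 0.0775). Ren1, the renin gene, had 2.23 and 6.25 CPM in Gulo-/- and 248.1 and 2.14 CPM in wild type, so wild type replicate 1 alone stood apart and the fitted difference (−5.0 ± 2.8) rests on it. Over all 46 genes of these lists other than Mdk, 29 were tested, 0 were called by edgeR, 9 had an unadjusted p under 0.05, and DESeq2 called 1. Of all 11153 genes tested, 16.4% had an unadjusted p under 0.05 by edgeR, and DESeq2 called 335 of 17098 (1.96%). The libraries did not overlap for 17 of the 29, against 51.0% of all genes.

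Endothelial cells were the only other class with at least 50 cells in every library. Of 6807 genes tested there, 34 (0.499%) passed edgeR's test, 0.0735% in the higher and 0.426% in the lower direction in Gulo-/-, as did 1 of the 23 list genes tested. That gene was Csf1, the macrophage growth factor. Csf1 had 10.4 and 8.86 CPM in Gulo-/- endothelial cells (8 and 32 UMIs) and 58.6 and 55.6 CPM in wild type ones (21 and 27 UMIs), with a log2 difference of −2.78 ± 0.38 (SE, edgeR adjusted p = 0.0255). The 2 libraries of each genotype lay close together. Without Gulo-/- replicate 2 the edgeR adjusted p was 0.0787, and without wild type replicate 2 it was 0.230. Of the 23 genes, 10 had libraries that did not overlap, against 40.4% of all genes tested, and 4 had an unadjusted p under 0.05, against 683 of the 6807.

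Nrp1, or neuropilin-1, a co-receptor for VEGF and semaphorins that also binds midkine, was the most abundant list gene in wild type endothelial cells. It had 506 and 486 CPM in Gulo-/- and 1024 and 1068 CPM in wild type (log2 difference −1.23 ± 0.26 SE, edgeR adjusted p = 0.112). Epas1, the endothelial hypoxia-inducible factor subunit, had 609 and 572 CPM in Gulo-/- and 438 and 288 CPM in wild type (0.58 ± 0.27, edgeR adjusted p = 0.532). Itgb1, Ncl, Nr3c1, Rarg and Itga6 had log2 differences between −0.36 and 0.30, with edgeR adjusted p from 0.796 to 0.989. The genotypes overlapped for Itgb1 but not for Itga6, which had 50.6 and 50.4 CPM in Gulo-/- and 55.8 and 55.6 CPM in wild type. Ptn had 18 and 54 UMIs in Gulo-/- endothelial cells and 2 and 0 UMIs in wild type ones (23.4 and 15 CPM against 5.58 and 0 CPM), below the filter and not tested.

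None of the 4 genes tested beside Mdk on the chromosome passed. Of the 5 nearest annotated genes on each side, 6 are listed in the matrices and 4 passed the filter. edgeR called 0, with 0 at an unadjusted p under 0.05, and DESeq2 called 0. Over all genes tested these shares were 0.188%, 16.4% and 1.96%, so 4 genes are too few to be told from genes at large. Dgkz, a diacylglycerol kinase gene whose span begins 525 bases from Mdk, had 17.9 and 12.2 CPM in Gulo-/- and 10.7 and 13.6 CPM in wild type proximal tubule cells (log2 difference 0.15 ± 0.31 SE, edgeR adjusted p = 0.845). Ambra1, an autophagy regulator 10956 bases away on the other side, had 5.95 and 9.12 CPM in Gulo-/- and 9.16 and 7.51 CPM in wild type (−0.27 ± 0.33, edgeR adjusted p = 0.718). Both overlapped between genotypes. Harbi1 had 5.46 and 7.81 CPM in Gulo-/- and 8.62 and 8.02 CPM in wild type (−0.45 ± 0.31, edgeR adjusted p = 0.499). Its Gulo-/- libraries were lower without overlap, as for 16.5% of all genes tested, while the genotypes overlapped for Atg13. Atg13, which acts in autophagy initiation, had 5.71 and 8.77 CPM in Gulo-/- and 8.21 and 13.3 CPM in wild type (−0.70 ± 0.33, edgeR adjusted p = 0.341). In the plot of neighbouring genes, Mdk, which was chosen for its low level, alone lies below −1.

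**Figure D4:**
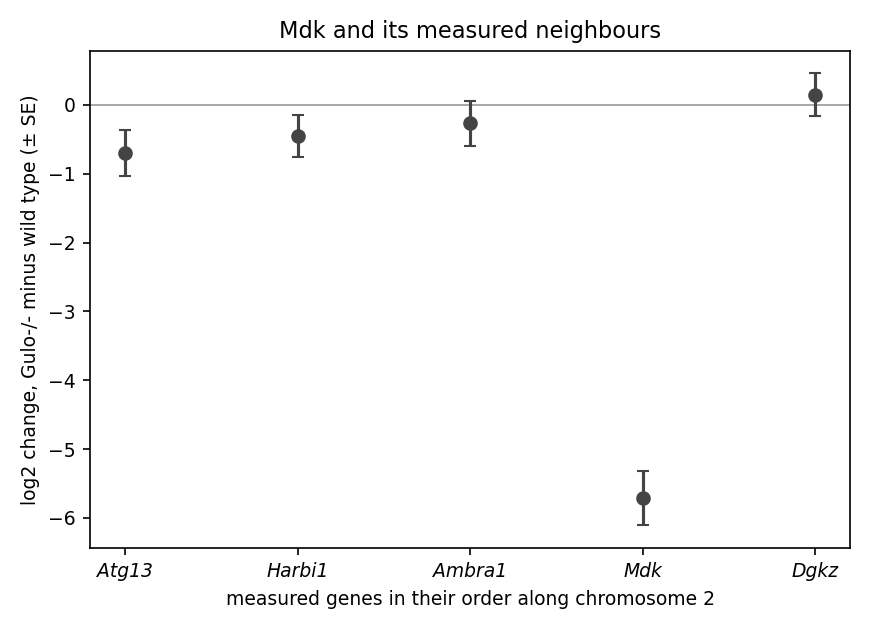
Log2 difference (Gulo-/- minus wild type, points) with its standard error (bars) in proximal tubule-gated cells for Mdk and its measured neighbours, in chromosome order. Mdk is at −5.71, and Atg13, Harbi1, Ambra1 and Dgkz lie between −0.70 and 0.15.

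The bisulfite data are available here as the authors' deposited table of regions called as differentially methylated, with a mean methylation level for each of 2 sides and no values by sample. The table does not say which side is which genotype, so the regions are given by side. In a bulk kidney sample, a change in the make-up of cell types and a change within a cell type cannot be told apart. In the authors' deposited table, all 4 regions that carry the name Mdk were lower on side 1; of all 86510 regions, 53.8% were lower on side 1. Among the 7867 regions annotated as promoters the share was 78.5%, and of 18425 genes with a region, 42.1% had at least 4.

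The promoter region of Mdk in the authors' deposited table lay at chr2:91931654-91932361 (mm10) and covered the gene's start. Its 42 CpG sites had a mean level of 0.263 on side 1 and 0.476 on side 2, a difference of −0.213. Of all regions, only 1.86% held more CpGs, while 34.9% had a larger difference. The medians over all regions were 6 CpGs and an absolute difference of 0.192. Over promoter regions alone they were 14 CpGs and 0.158, and the Mdk promoter region lay above these in both measures. The largest difference of the 4 was upstream, at chr2:91934157-91934270, with 8 CpGs at 0.433 on side 1 and 0.764 on side 2 (−0.331), and 2.20% of regions exceeded it. That region lies upstream of Mdk, with a distance of −1860 bases to its start in the table, and inside the span of Dgkz.

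The other 2 regions in the authors' deposited table lie beyond the 3′ end of Mdk, inside the span of Chrm4. They carry the name Mdk and the annotation exon. At chr2:91927827-91928052, 13 CpGs had 0.398 on side 1 and 0.586 on side 2. At chr2:91928168-91928325, 7 CpGs had 0.597 on side 1 and 0.758 on side 2. Of 21 regions annotated to neighbouring genes, 16 were lower on side 1 (76.2%), among them a Dgkz promoter region of 66 CpGs at 0.105 on side 1 and 0.293 on side 2. The plot of methylation around Mdk shows the regions of Mdk and of Dgkz side by side, most with side 1 below side 2.

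**Figure D5:**
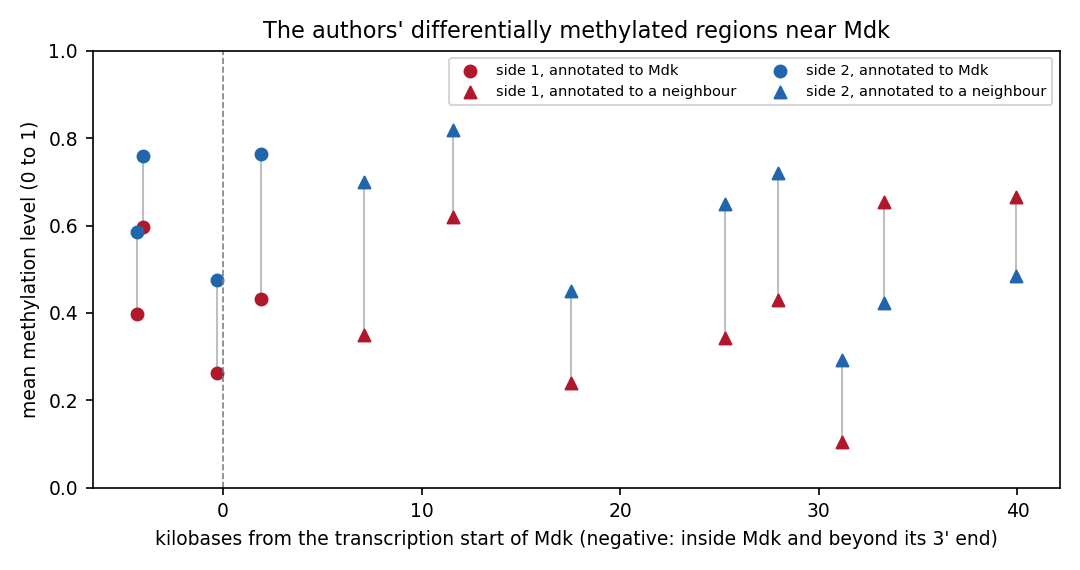
Mean methylation level (fraction) on side 1 and side 2 of the authors' deposited regions against distance from the Mdk start (kb, positive upstream); circles are regions annotated to Mdk and triangles those of neighbouring genes. The 4 Mdk regions have side 1 minus side 2 between −0.331 and −0.161.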

How the data were processed

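Single-cell matrices of raw UMI counts for 2 Gulo-/- and 2 wild type libraries were deposited by the authors. The labels list mm10, Seurat 2.3.4 and MACS2 2.1.2, per the submitters' processing notes. The tool that counted UMIs is not named there. The deposited methylation table of the authors gives a mean fraction per region and side. The members and lists were chosen with earlier results of these data known, and gate thresholds were set after seeing the data, though not on Mdk.

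Kept barcodes had 500 UMIs or more, 200 genes or more and a mitochondrial share of at most 50%, and the highest Scrublet scores (scanpy 1.11.5) were removed at 0.8% per 1000 cells. A cell joined the class with the highest mean log-scaled marker level (score of at least 0.7, margin of 0.3, at least 3 markers). A segment needed at least 3 UMIs of its list and 2-fold each other list. Clusters came from leidenalg 0.10.2 on 2000 variable genes. Counts summed per library and gate were tested with edgeR 4.0.16 (R 4.3.3; TMM, filterByExpr, quasi-likelihood F test, Benjamini-Hochberg over all genes, called under 0.05), with DESeq2 1.42.0 as an alternative, and checked on simulated data. Standard errors beside edgeR differences were back-calculated from the F statistic. Mdk's own difference is given with such a standard error and no p. Intervals are 95% exact Poisson or binomial intervals and cover counting error only; a count of 0 is given the limit of 3 counts. List genes named are those called, then the 8 highest in wild type cells of a class; others are marked as chosen after their values were seen, and some items are not reported here. Replicate numbers do not pair the libraries. Bulk RNA and m6A samples were not analysed here.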

Additional observations from a re-analysis of the deposited data

Results flagged for a closer look

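Among midkine's receptors, Itga6 and Nrp1 had opposite directions by genotype in proximal tubule and endothelial cells, and in each class the libraries of the genotypes did not overlap, as was the case for 51.0% of all genes tested in the proximal tubule and 40.4% in endothelial cells. The difference between the classes was not tested, and no cause was examined. For Itga6, the log2 difference, Gulo-/- minus wild type, was 1.05 in proximal tubule cells and −0.31 in endothelial cells. For Nrp1, it was 0.57 in proximal tubule cells and −1.23 in endothelial cells. Nrp1 had 14.1 and 13.9 CPM in Gulo-/- proximal tubule cells and 5.33 and 11.4 CPM in wild type ones, so the wild type libraries lay farther from each other than replicate 2 of wild type lay from Gulo-/-. Neither gene passed the edgeR threshold in either class. No group had the 4 libraries that a check for single outlying samples needs.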

How the results depend on the processing

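On the log2(CPM + 1) scale the Mdk difference was −4.62, with −3.17 with a pseudocount of 5 and −4.90 to −4.34 with 1 library left out, all in the same direction. Leaving out cells with any UMI of another class gave −5.38, where, here and below, erythroid UMIs were allowed. That value came from 0 UMIs in 61 and 4 Gulo-/- cells. The limit of 286 CPM for Gulo-/- replicate 2 is above both wild type levels, so the direction was not measured for that library. The limit of 24.1 CPM for Gulo-/- replicate 1 is below both wild type levels. The difference in positive cells was −17.9 percentage points, −4.66 thinned to 1000 UMIs, −8.66 thinned to 2000, and −19.2 to −16.6 with 1 library left out.

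Counts of called genes depend strongly on settings. The 21 genes of the proximal tubule became 35 with at most 25% mitochondrial UMIs, 79 without doublet removal, 76 with shared barcodes kept, 941 without the count filter, 335 with DESeq2, 0 with sex as a block, and 0 to 602 with 1 library left out (0 without Gulo-/- replicate 1, 602 without wild type replicate 1). The 34 endothelial genes became 325, 67 and 1 to 116 under no filter, DESeq2 and leaving out 1 library (1 without wild type replicate 2). Among the list genes, 4 and 1 were called in the proximal tubule and 3 and 2 in endothelial cells without the filter and with DESeq2, and 0 to 3 and 0 to 1 with 1 library left out.

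The replicate numbers mark a shallow and a deep library and are not known to pair them: same-numbered deviations correlated at −0.0270 in the proximal tubule and 0.137 in endothelial cells. With the replicate block, 1 of the 12 genes alike to Mdk and 1 of the 8 S1 ones were called, as also without the count filter, and 430 proximal tubule and 413 endothelial genes were called, 2 and 3 of them list genes.

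Some genes that were not called changed sign, and the cause was not tested. In the proximal tubule these were Ren1 (0.50 over Leiden clusters, −5.98 to 0.94 with 1 library left out), Ncl (−0.0080 without cells holding a UMI of another class), Nr3c1 (0.47 likewise), Sdc2 (0.57 likewise, −1.86 to 0.57), Rxra (−0.054 likewise, −0.14 to 0.42) and Dgkz (−0.20 to 0.46). In endothelial cells these were Itgb1 (0.010 unfiltered, 0.049 with the replicate block, 0.036 with sex as a block, −0.47 to 0.56) and Rarg (−1.20 to 0.26). The residual r of Slc7a7 with Mdk was −0.011, after regression on a score that holds Slc7a7 itself.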

Other observations

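Mdk was also counted in the barcodes left out of the gates. Those that failed the filters on UMIs, genes or mitochondrial share had 0 Mdk UMIs in 1042 and 2860 barcodes of Gulo-/- replicates 1 and 2, and 22 and 223 UMIs in 495 and 3471 barcodes of wild type replicates 1 and 2 (13.8 and 20.9 CPM). Probable doublets had 0 and 9 Mdk UMIs in 28 and 1559 Gulo-/- barcodes (0 and 0.860 CPM) and 13 and 238 UMIs in 20 and 535 wild type barcodes (95.5 and 55.3 CPM). The barcodes of wild type replicate 2 that it shares with wild type replicate 1 held 198 Mdk UMIs in 793 cells, or 59.9 CPM, with 16.9% positive cells.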
